A study of Mus musculus with 24 samples.

Results

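VI-2 is the name that the authors' deposited annotation gives to 1 of 5 ventral inhibitory (VI) populations of nuclei from the mouse lumbar spinal cord. Its members were all nuclei carrying that label, 219 of 18000 barcodes and 5.12% of the 4280 neurons that the annotation places in 1 of 43 populations. The other VI populations hold 178 (VI-1), 37 (VI-3), 55 (VI-4) and 123 (VI-5) nuclei. In the 10 mice that have VI-2 nuclei there were 189 nuclei of the other VI populations, and these are the reference below.

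RNA of single nuclei was read in droplets (Drop-seq), where every captured molecule carries a unique molecular identifier (UMI). The 24 samples were ICR/CD-1 mice, an outbred stock, of either sex and 8 to 11 weeks of age. There were 9 control mice, 10 mice given 30 µl of 2% paraformaldehyde (formalin) into the sole of each hindpaw, a painful stimulus, and 5 mice placed on a rotating rod (rotarod) as a motor challenge, with the speed raised over 5 minutes to 40 rotations per minute. Although the tissue label reads brain, the protocol describes lumbar spinal cord freed of dorsal root ganglia. Formalin and rotarod mice carry the numbers of their titles, and control mice are numbered in the order of the deposited samples.

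Ventral inhibitory interneurons release GABA, glycine or both, and shape the timing of motor neuron firing and the alternation of flexor and extensor muscles. GABA is made by the enzymes of Gad1 and Gad2 and glycine is taken up at the terminal by the transporter of Slc6a5, while the transporter of Slc32a1 loads either transmitter into vesicles. During development these cells arise from separate progenitor domains, whose lineages are marked by transcription factor genes such as En1 and Foxp2 (V1), Gata3 (V2b) and Dmrt3 (dI6), and Renshaw cells, which feed inhibition back onto motor neurons, are marked by Chrna2 and Calb1.

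VI-2 came from a small set of libraries, and this bears on every result below. Control mouse 9 gave 117 of its nuclei, control mouse 7 gave 52, rotarod mouse 3 gave 25 and control mouse 8 gave 16. Rotarod mouse 5 gave 4, and rotarod mice 1, 2 and 4 and formalin mice 1 and 6 gave 1 each. The other 6 control mice had 0 VI-2 nuclei, although control mouse 6 alone had 33 VI nuclei.

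Control mice 7, 8 and 9 are the 3 whose titles end in cx, a suffix the labels do not explain. They held 185 of the 219 nuclei (84.5%), and control mouse 9 alone held 53.4%. Among the 36 populations of at least 50 nuclei, no other drew more than 21.1% from a single mouse or more than 37.4% from those 3 mice. The smaller VI-3 had 89.2% of its 37 nuclei in them. VI-1 went the other way, with 9 of 178 nuclei in the 3 cx mice and 0 in control mouse 9. The VI-2 label, the cx titles and individual mice can therefore hardly be told apart, and the main values are also given for rotarod mouse 3 or for the 34 nuclei from mice outside the cx set, of which rotarod mouse 3 gave 25. No VI-2 barcode sequence occurred in another library, of 19 that did so in the series.

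**Figure D1:**
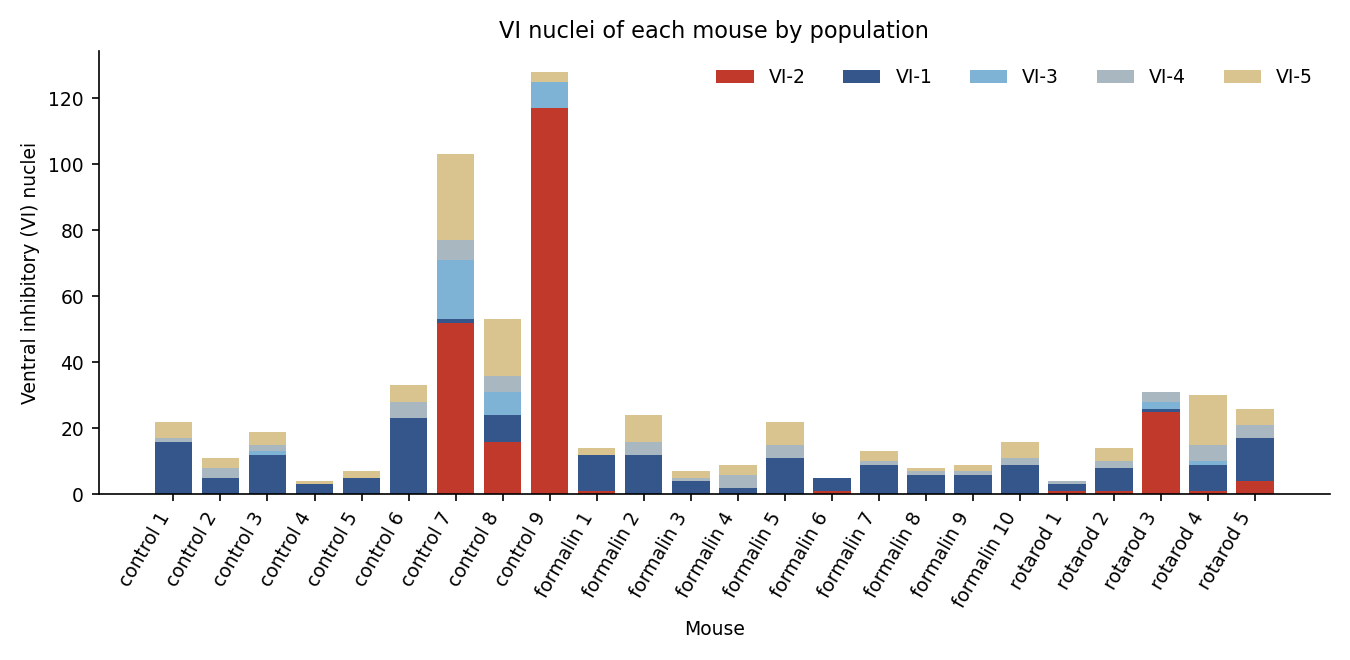
Number of VI nuclei (vertical axis) in each of the 24 mice (horizontal axis), stacked by population, with VI-2 in red at the base. VI-2 makes up most of the VI nuclei of control mouse 9 (117 of 128) and rotarod mouse 3 (25 of 31) and is missing from control mice 1 to 6.

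VI-2 nuclei were shallow. Their median was 2184 UMIs, with a range from 1216 to 6492, against 6016 in the other VI nuclei of the same mice. By mouse the medians were 2753 against 6738 in control mouse 7, 2592 against 6241 in control mouse 8, 1937 against 5647 in control mouse 9 and 2492 against 6429 in rotarod mouse 3. All 4 mice show the same gap, so depth moves with the label. Ranked by median depth, VI-2 stood at place 29 of the 36 populations. A nucleus with less RNA and a nucleus that was captured less well cannot be told apart here. Values are therefore also given for nuclei of 1500 to 3000 UMIs, where 144 VI-2 nuclei (median 2070.5 UMIs) stand beside 35 other VI nuclei (2224) and 640 other neurons with a population (2192.5) of the same mice.

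The transmitter genes only partly bear out the name. Levels are given in CPM, the UMIs of a gene scaled to a total of 1000000, pooled over nuclei. The 6 inhibitory transmitter genes together made up 317 CPM in VI-2 and 359 CPM in the other VI nuclei. The 18 excitatory populations of at least 50 nuclei spanned 27.3 to 214 CPM on this measure with a median of 60.3, and the 11 dorsal and mid inhibitory populations spanned 452 to 1549 CPM with a median of 836. VI-2 thus lay between the groups, as did VI-1 at 366 CPM, VI-5 at 400.0 and VI-4 at 420.4.

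Each mouse with at least 5 VI-2 and 5 other VI nuclei placed VI-2 above its own excitatory neurons. The inhibitory sum in VI-2 was 290.2 CPM in control mouse 7, 488 in control mouse 8, 298 in control mouse 9 and 302 in rotarod mouse 3. In the excitatory nuclei of the same mice it was 91.5, 70.7, 111 and 52.9 CPM, and in their dorsal and mid inhibitory nuclei 610, 749, 736 and 942 CPM. The 3 ranges do not overlap. On the same sum, oligodendrocytes of these mice had 128, 84.2, 105 and 166 CPM, above the excitatory nuclei in all but control mouse 9. Neurons without a population had 433, 343, 287 and 472 CPM, above VI-2 in control mouse 7 and rotarod mouse 3. Outside the cx mice the sum was 337 CPM in VI-2 and 394 CPM in the other VI nuclei.

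Slc6a5, the neuronal glycine transporter, gave 55 of the 171 UMIs in this sum. It was at 102 CPM in VI-2, the ninth highest of the 36 populations, against 162 CPM in the other VI nuclei. By mouse, Slc6a5 in VI-2 was 48.4, 279, 90.5 and 143 CPM in control mice 7, 8 and 9 and rotarod mouse 3. The other VI nuclei of these mice had 123, 158, 97.2 and 194 CPM, so the order of the 2 was not the same in every mouse. Slc32a1, the vesicular inhibitory transporter, was at 27.8 CPM in VI-2 and 14.9 CPM in the other VI nuclei, from 15 UMIs. Gad1 had 9 UMIs in all VI-2 nuclei (16.7 CPM) and Gad2 had 18 (33.4 CPM, against 53.3 in the other VI nuclei). In VI-2 of rotarod mouse 3, Gad1, Gad2 and Slc32a1 had 0 UMIs each.

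Shares of nuclei with a UMI were compared after each nucleus was thinned to 1000 UMIs, with exact 95% binomial intervals that cover counting error only. They take nuclei as independent and leave out the spread between mice, and no shares by mouse are given. Slc6a5 was seen in 10.0% of VI-2 nuclei (6.40 to 14.8), 20.1% of other VI nuclei (14.6 to 26.5), 1.04% of excitatory nuclei and 1.12% of oligodendrocytes. Oligodendrocytes, which should lack the gene, were a reference for free RNA, and the interval of VI-2 lay above their share. They came from the mice in other proportions than VI-2, with 5 from control mouse 9. The part of free RNA in VI-2 was therefore not tested. Without thinning these shares were 18.7%, 51.3%, 4.77% and 1.24%, at median depths of 2184, 6016, 2806 and 1190 UMIs. No VI-2 or other VI nucleus had under 1000 UMIs, while 32 excitatory nuclei and 291 oligodendrocytes did and were left out. Gad2 was seen in 1.37% of thinned VI-2 nuclei (0.283 to 3.95) and 1.69% of oligodendrocytes, against 5.82% of other VI nuclei. The interval of VI-2 holds the oligodendrocyte share, but with nuclei as the unit it cannot decide whether the 2 differ between mice. Without thinning, the Gad2 shares were 6.85%, 2.32% and 23.8%.

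Slc17a6, the vesicular glutamate transporter of excitatory neurons, was also present in VI-2. It was at 52.0 CPM, place 22 of 36, against 25.6 CPM in the other VI nuclei, 65.6 to 199 CPM in the 18 excitatory populations and 0 to 51.8 CPM in the dorsal and mid inhibitory ones. By mouse it was 48.4, 46.5, 56.6 and 47.7 CPM in VI-2 of control mice 7, 8 and 9 and rotarod mouse 3, from 7, 2, 15 and 3 UMIs. The other VI nuclei gave 32.2, 23.2, 55.6 and 55.4 CPM, which overlaps. After thinning, 6.85% of VI-2 nuclei (3.88 to 11.0) held a Slc17a6 UMI, against 9.32% of excitatory nuclei and 1.97% of oligodendrocytes (0.794 to 4.01), an interval that just meets that of VI-2. The unthinned shares were 12.3%, 26.2% and 2.78%. VI-1, the most abundant sister population, had a like level of 63.8 CPM.

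Nucleus by nucleus, 100 of the 219 VI-2 nuclei (45.7%) held a UMI of any inhibitory transmitter gene and 27 held Slc17a6. There were 9 with both and 101 with neither.

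**Figure D2:**
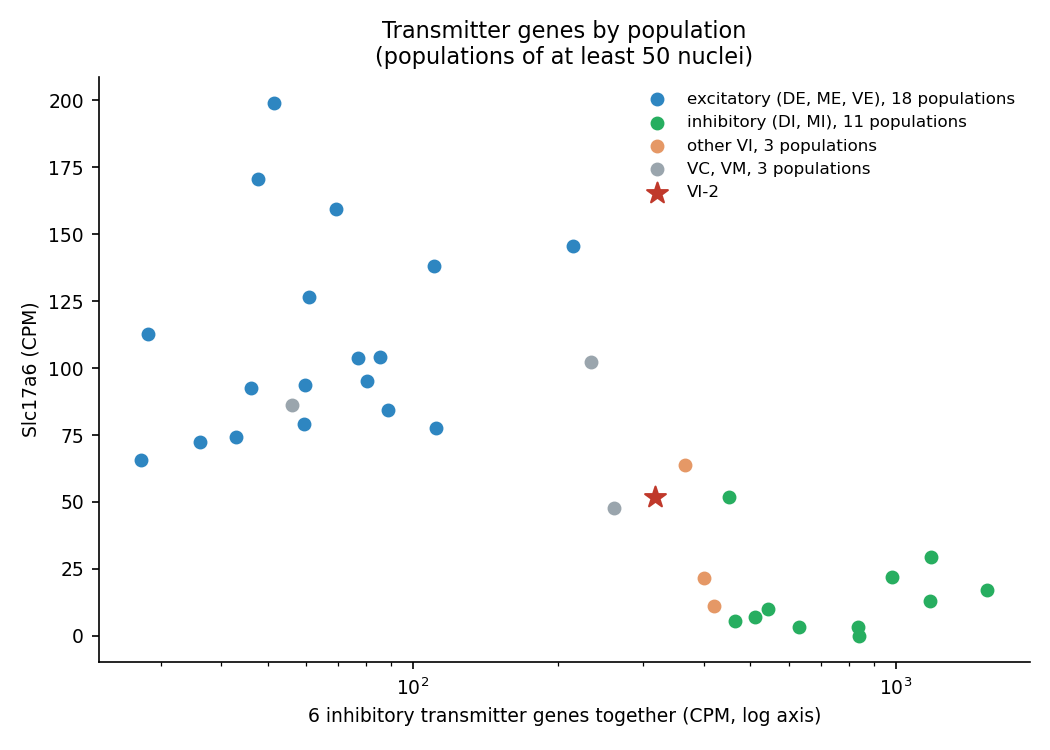
Slc17a6 level in CPM (vertical axis) against the sum of 6 inhibitory transmitter genes in CPM (horizontal log axis), 1 point for each of the 36 populations of at least 50 nuclei. VI-2 (star, 317 and 52.0 CPM) lies beside the other VI populations, between the excitatory and the dorsal and mid inhibitory groups.

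Few UMIs of the lineage genes were found in VI-2. En1 had 1 UMI in all 219 nuclei, Gata3 had 2, Calb1 had 2, and Dmrt3 and Chrna2 had 0, which at 3 counts of 538819 allows up to 5.57 CPM each. En1 and Gata3 were also scarce in the other VI nuclei, where En1 was at 2.84 CPM and Gata3 at 3.56 CPM. Of the 6 V1 lineage genes, 2 were abundant enough to count and each counted as lower in VI-2 by the 2-fold rule given below, which 1.87% of all measured genes met. Foxp2 was at 44.5 CPM against 98.1. At matched depth it did not remain below the other VI nuclei (32.1 against 25.9 CPM). The 5 genes of the Renshaw list had 28 UMIs in VI-2. Their sum had no common order. It was 13.8, 0, 49.0 and 143 CPM in VI-2 of control mice 7, 8 and 9 and rotarod mouse 3, against 78.6, 81.1, 83.4 and 27.7 CPM in the other VI nuclei. It was 151 against 65.6 CPM outside the cx mice and 77.2 against 13.0 CPM at matched depth. Chat, the marker of cholinergic cells, had 3 UMIs.

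Genes that place a neuron along the cord were present. Of 20 Hox genes in the files, 7 were measured at 50 CPM or more on either side, and all 7 were higher in VI-2 than in the other VI nuclei, with a median log2 ratio of 0.53 against 0.04 over all 3904 genes measured at that level. None reached 2-fold. The Hox sum was 1472 against 1022 CPM, with 1557 against 1551 in rotarod mouse 3. At matched depth 5 of the 7 were higher, and against all other neurons 3 of 7. The depth-axis factors were level, with 8 of 17 above 0 and 9 below. Among them Ebf3, a transcription factor, was at 152 CPM in VI-2 and 61.9 in the other VI nuclei, but at 213 CPM in all other neurons.

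The pooled profile of VI-2 was set beside the other VI nuclei across genes. The log2 ratios use CPM plus 10. A gene was counted as higher or lower when the higher pool had 50 CPM or more, the ratio of the CPM themselves was at least 2-fold and at least 75% of the 4 mice had the same direction. Because the population labels were given to these same nuclei, presumably from these same counts, the profile is a description and carries no p-value. By this rule 210 of 3904 genes were higher in VI-2 (5.38%) and 73 were lower (1.87%). Of the 210, 147 (70.0%) were higher in all 4 mice, and of the 73, 40 were lower in all 4. Outside the cx mice, with 34 VI-2 and 90 other VI nuclei, where only rotarod mouse 3 gives values per mouse, the counts were 555 and 342. At matched depth 60 of the 210 and 14 of the 73 still met the rule against the other VI nuclei, and 75 and 13 against all other neurons.

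The pools do not weigh mice alike, since the other VI nuclei come from mice in other proportions than VI-2. With equal weight for each of the 4 mice, 119 of the 210 and 46 of the 73 still met the rule. Of the 23 genes named here that counted as higher, 8 were then under 2-fold, and of the 19 that counted as lower, 5 were. The log2 ratio of the mean over mice is therefore given beside the pooled one below, and the SD is that of the ratios within mice.

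**Figure D3:**
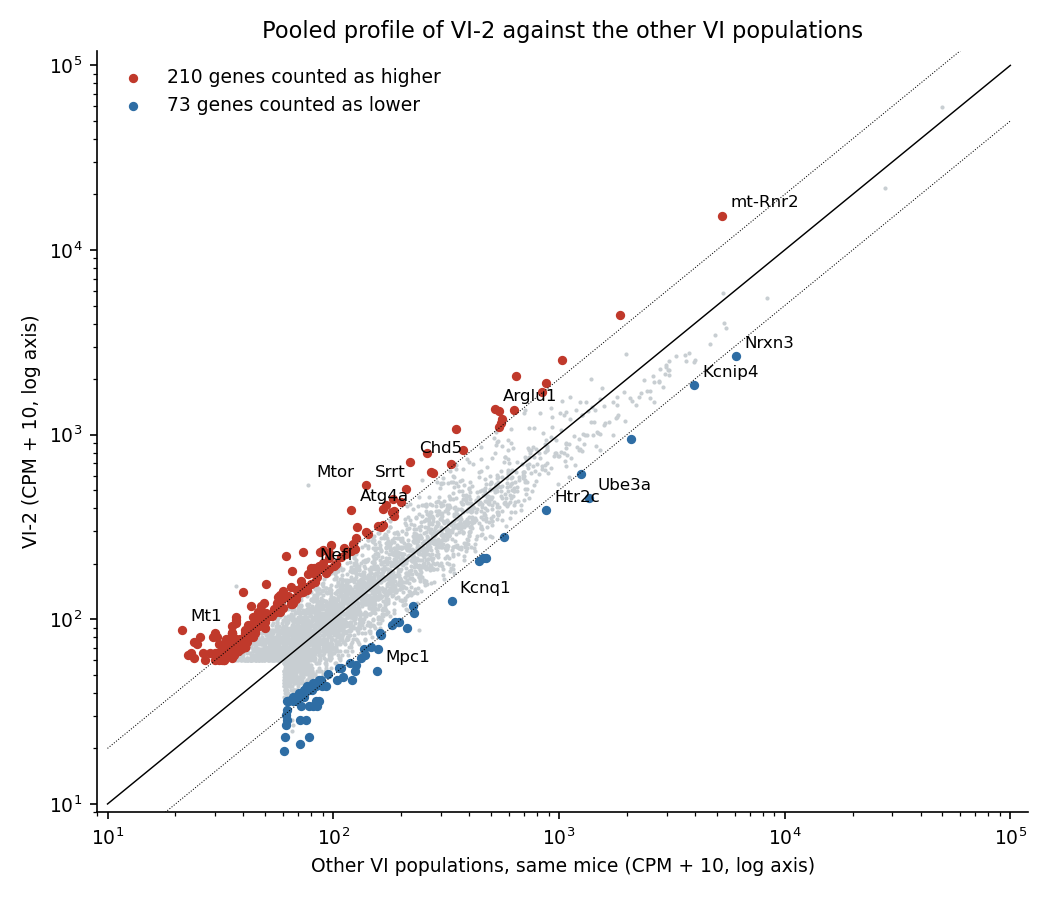
Pooled level of each of the 3904 genes in VI-2 (vertical axis) and in the other VI nuclei of the same mice (horizontal axis), both as CPM plus 10 on log axes. Lines mark equality and 2-fold, and 210 genes counted as higher (red) and 73 counted as lower (blue) are coloured.

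Among the genes with the highest ratios was Srrt, which encodes a partner of the RNA cap-binding complex (chromosome 5, 137295704 to 137307674 on GRCm38, minus strand). Srrt was at 608, 325, 554 and 381 CPM in VI-2 of control mice 7, 8 and 9 and rotarod mouse 3. In the other VI nuclei of these mice it was at 167, 96.6, 236 and 222 CPM. The 2 sets do not overlap. Pooled, 523 CPM against 130.1 gave a log2 ratio of 1.93, which was above the ratio in each mouse (0.76 to 1.80). The ratio of the means over mice was 1.33 (SD 0.47, n = 4). The next highest population, DI-1, had 203 CPM. No VI-2 nucleus held more than 7 of the 282 UMIs, and 145 of 219 nuclei held at least 1.

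Sart3, a factor that recycles spliceosome parts (chromosome 5, 113742446 to 113772510), showed the same pattern. It was at 242, 186, 223 and 222 CPM in VI-2 of the 4 mice in the order above, and at 62.5, 81.1, 139 and 83.1 CPM in their other VI nuclei. Again every VI-2 value lay above every other VI value. Pooled levels were 221 and 63.3 CPM, a log2 ratio of 1.66, and the means over mice gave 1.17 (SD 0.48, n = 4). The next highest population, VI-1, had 96.7 CPM.

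Arglu1, a nuclear protein that acts in transcription and splicing (chromosome 8, 8665075 to 8690521), was at 1458, 906, 1411 and 1462 CPM in VI-2 and at 516, 487, 708 and 942 CPM in the other VI nuclei. It was higher in VI-2 within each mouse, although the highest other VI value exceeded the lowest VI-2 value. Its pooled log2 ratio was 1.41, and that of the means over mice 0.97 (SD 0.36, n = 4), just under 2-fold. Pdcd7, a protein of the minor spliceosome (chromosome 9, 65346104 to 65359643), was at 428, 232, 487 and 461 CPM against 202, 174, 347 and 277 CPM, a pooled log2 ratio of 1.29. It was higher in 4 of 4 mice, but by 0.40 to 1.05, and the means over mice gave 0.66 (SD 0.29, n = 4), under 2-fold. Apart from Mtor, described below, Pdcd7 stood furthest above the other populations of the named genes. The next highest, VE-1, had 149 CPM against 440 in VI-2. Neurons without a population were not part of this ranking.

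Atg4a, a protease of autophagy on chromosome X (140956907 to 141164270), was at 221, 209, 385 and 636 CPM in VI-2 and 76.6, 69.5, 361 and 305 CPM in the other VI nuclei. Control mouse 9 showed almost no difference in it, and rotarod mouse 3 had the highest level. Its pooled log2 ratio was 1.71, above the ratio in each mouse (0.089 to 1.46), and that of the means over mice was 0.81 (SD 0.64, n = 4), under 2-fold. Chd5, a chromatin remodeller of neurons (chromosome 4, 152338651 to 152390194), was at 553, 186, 879 and 636 CPM against 220, 162, 361 and 554 CPM, a pooled log2 ratio of 1.70 and 0.78 for the means over mice (SD 0.63, n = 4), again under 2-fold. Here the difference came mainly from control mice 7 and 9. Anp32b, a nuclear histone chaperone, and Ik, a spliceosome protein, were at 129.9 and 145 CPM against 29.9 and 40.5 CPM, higher in 4 of 4 mice each. Nefl, the light neurofilament chain of axons, was at 180, 232, 151 and 286 CPM against 60.5, 73.4, 55.6 and 55.4 CPM, with no overlap, a pooled log2 ratio of 1.25 and 1.64 for the means over mice (SD 0.39, n = 4). VI-1, pooled over all mice, was close to VI-2 in Nefl, at 150 against 180 CPM.

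These genes kept their direction outside the cx mice. In the 34 VI-2 nuclei of the other mice, Srrt was at 384 CPM against 100.1 in their other VI nuclei, Sart3 at 198 against 46.6, Arglu1 at 1326 against 492, Pdcd7 at 419 against 128, Atg4a at 733 against 126 and Nefl at 244 against 77.7.

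They also kept it in the pools of matched depth. Among nuclei of 1500 to 3000 UMIs, Srrt was at 453 CPM in VI-2, 155 in the other VI nuclei and 179 in all other neurons. Sart3 was at 203, 64.8 and 69.0 CPM, Arglu1 at 1415, 661 and 594 CPM, and Pdcd7 at 457, 220.2 and 105 CPM. These pools hold the mice in unlike proportions. Within control mice 7, 8 and 9, Srrt was at 558, 320 and 459 CPM in VI-2, against 344, 132 and 253 CPM in all other neurons. Arglu1 was at 1504, 919 and 1457 CPM against 687, 529 and 1012 CPM there. Pdcd7 was at 424, 240 and 518 CPM against 125, 90.8 and 165 CPM. Populations were also ranked on pools over mice, with the same unlike proportions. Among the 31 with at least 20 nuclei of that depth, VI-2 was the highest for Srrt, Sart3, Arglu1, Pdcd7, Atg4a and Anp32b. The next highest values were 257, 105, 738, 159.9, 196 and 77.0 CPM. For Nefl, VI-2 at 206 CPM was below DI-2 at 232, with VI-1 at 172 CPM. Rotarod mouse 3 was the exception by mouse. Its 18 VI-2 nuclei of that depth had 257 CPM of Srrt, 25.7 of Sart3 and 1415 of Arglu1, against 233, 139.7 and 1397 CPM in its 22 other neurons, so that Sart3 went the other way there. Pdcd7 was at 463 against 303 CPM in the same nuclei.

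The share of nuclei with a UMI gave the same picture after thinning. Srrt was seen in 36.5% of VI-2 nuclei (30.1 to 43.3), 12.7% of other VI nuclei, 10.8% of excitatory nuclei and 10.7% of oligodendrocytes. Pdcd7 was seen in 38.8% of VI-2 nuclei (32.3 to 45.6), 18.5% of other VI nuclei, 7.83% of excitatory nuclei and 2.53% of oligodendrocytes. Without thinning the Srrt shares were 66.2%, 54.0%, 32.2% and 17.0%, and those of Pdcd7 62.6%, 60.8%, 26.1% and 4.17%.

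**Figure D4:**
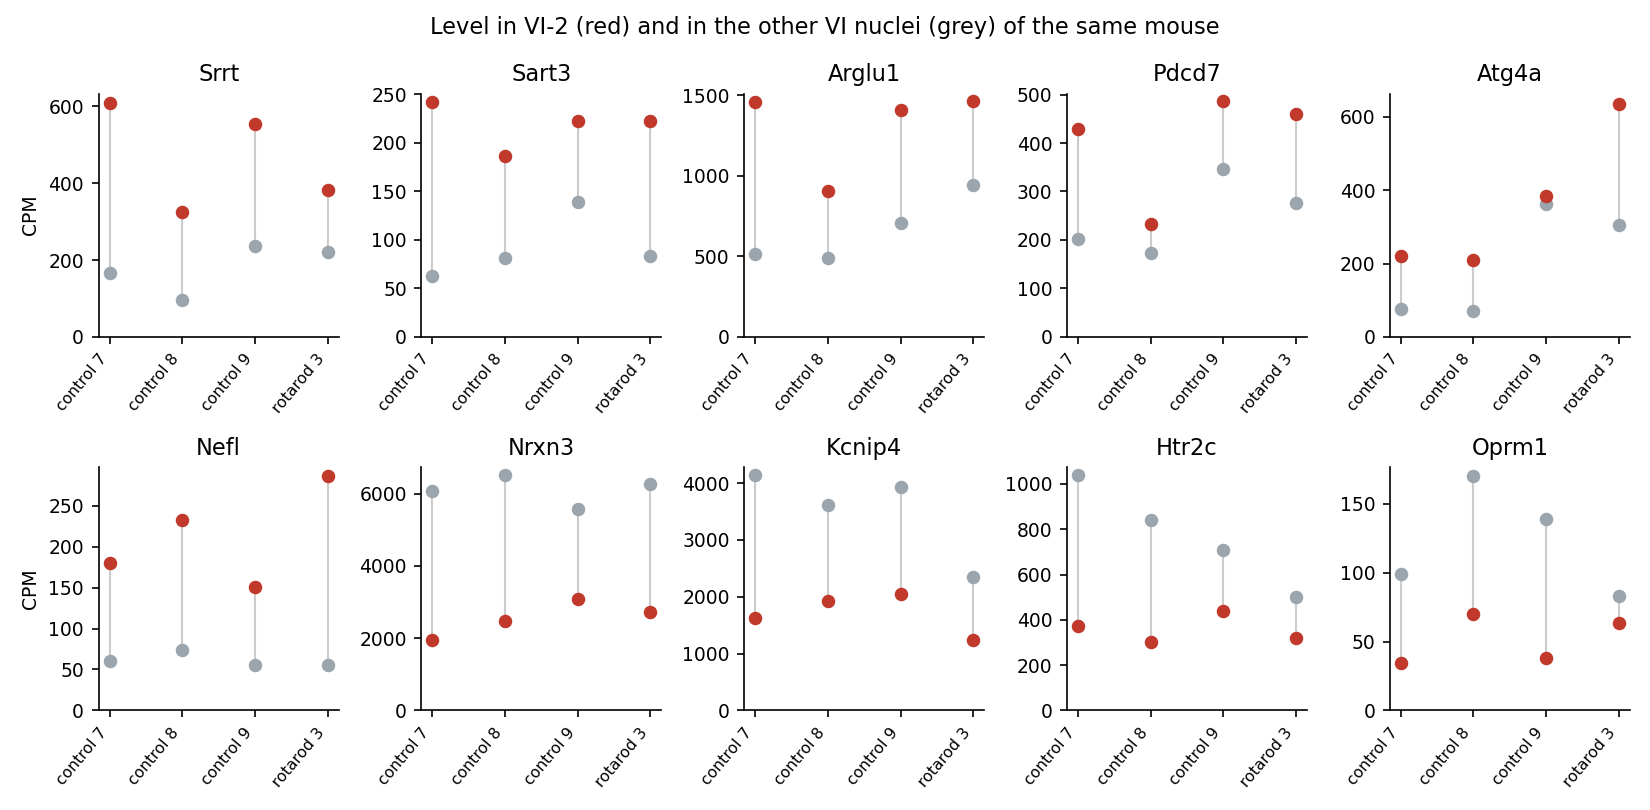
CPM of 10 genes (vertical axes, from 0) in VI-2 (red) and in the other VI nuclei (grey) of the 4 mice with at least 5 nuclei of each (horizontal axes). Srrt, Sart3, Arglu1, Pdcd7, Atg4a and Nefl are higher in VI-2 in each mouse, and Nrxn3, Kcnip4, Htr2c and Oprm1 are lower in each.

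The named gene with the largest pooled ratio, Mtor, rested on a single nucleus. Of its 282 UMIs in VI-2, 256 came from 1 nucleus of control mouse 9. It was at 34.6, 0, 1018 and 111 CPM in the 4 mice and was not counted as higher, since only 2 of 4 mice had that direction. Its log2 ratio of 2.78 was -0.59 without control mouse 9 and -0.71 at matched depth.

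Transcripts of oligodendrocytes, the myelinating glia, were also high in VI-2. The 8 genes of the oligodendrocyte list together made up 3222 CPM, the highest of the 36 populations, against 1038 in the other VI nuclei and 2528 in the next highest population, DE-2. Mbp, a major myelin protein, was at 587, 1650, 928 and 175 CPM in VI-2 of the 4 mice and 161, 375, 292 and 139 CPM in their other VI nuclei. It was higher in VI-2 in 4 of 4 mice, but the mouse set the level, with rotarod mouse 3 low on both sides. All 4 list members measured at 50 CPM or more were above 0 in log2 ratio, and 0 of the 8 were undetected. Oligodendrocytes themselves carried 21688 to 27437 CPM of this list in the 4 mice.

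The excess was smaller at matched depth and outside the cx mice. At matched depth the list was at 3350 CPM in VI-2, 1969 in the other VI nuclei and 2807 in all other neurons, a ratio of 1.19 to the last. By mouse, VI-2 had 2219, 4794, 4403 and 797 CPM there and all other neurons 2526, 4427, 3268 and 1001 CPM, with no common order. Outside the cx mice it was at 989, 784 and 1167 CPM. The astrocyte list moved alike, at 243 CPM against 95.3, and at 238, 207 and 231 CPM in the 3 sets at matched depth. Slc1a3, an astrocyte glutamate transporter, was counted as higher on 29 UMIs (53.8 against 12.8 CPM). The microglia list was at 102 against 71.8 CPM and the meningeal list at 18.6 against 19.2 CPM. The part of glial RNA in the profile was not tested.

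Against the other VI nuclei, mitochondrial RNA was high in VI-2 in 3 of these mice and, for part of its genes, not in control mouse 9. mt-Rnr2, the large mitochondrial ribosomal RNA, was at 15943, 11574, 18234 and 4895 CPM in VI-2 and 4404, 3593, 14739 and 3241 CPM in the other VI nuclei. Pooled, it was at 15356 CPM, the highest of the 36 populations, with 9592 CPM in the next, DE-2. At matched depth it was at 15425 CPM in VI-2, 7733 in the other VI nuclei and 11106 in all other neurons. By mouse, VI-2 of that depth had 13450, 12464, 19744 and 5453 CPM in control mice 7, 8 and 9 and rotarod mouse 3. All other neurons had 14692, 10150, 15372 and 5588 CPM, so there was no common order. Outside the cx mice mt-Rnr2 was at 7386 CPM in VI-2 against 5565 CPM in the other VI nuclei. All 6 measured members of the mitochondrially encoded list were above 0 against the other VI nuclei, and 4 of 6 at matched depth against all other neurons. By mouse the list stood at 2080, 3486, 3293 and 1001 CPM in VI-2 and 431, 1047, 6307 and 748 CPM in the other VI nuclei. Control mouse 9, which holds 53.4% of VI-2, thus went the other way, with 11 other VI nuclei. In it mt-Nd4, mt-Co1 and mt-Cytb were lower in VI-2, the last, a subunit of complex III, at 879 against 1903 CPM. Outside the cx mice the list was at 1524 against 1602 CPM. With equal weight per mouse the log2 ratio was 0.96 for mt-Rnr2 (pooled 1.54), 0.11 for mt-Nd4 (1.07) and -0.040 for mt-Cytb (1.06). Fth1 (ferritin heavy chain) and Mt1 (a metallothionein) were at 212 and 77.9 CPM against 51.9 and 11.4, and at matched depth against all other neurons at 219 against 215 and 99.7 against 51.3 CPM.

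Otof, a vesicle fusion protein, was at 70.5 CPM against 15.6 in the other VI nuclei but at 78.4 in all other neurons. Sparc, a secreted matrix protein, was higher in 3 of 4 mice.

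Most genes of synaptic adhesion stood below the other VI nuclei in VI-2, few of them by 2-fold. Of the 30 synaptic adhesion genes measured at 50 CPM or more, 25 were below 0 in log2 ratio, with a median of -0.45, against a median of 0.04 and 1803 of 3904 below 0 over all measured genes. Only Nrxn3 and Cntnap5c counted as lower at 2-fold. Nrxn3, a presynaptic neurexin (chromosome 12, 88722876 to 90334935), was at 1956, 2464, 3097 and 2734 CPM in VI-2. In the other VI nuclei it was at 6079, 6514, 5584 and 6261 CPM, with no overlap. Its log2 ratio was -1.19 pooled and -1.25 for the means over mice (SD 0.33, n = 4). Pooled over all mice, VI-1 had 3286 CPM of Nrxn3 and VI-5 had 6968, so VI-1 was nearer to VI-2 (2656 CPM). Cntnap5c, a related adhesion gene, was at 98.4 against 218 CPM.

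Of the ion channel genes, 19 of 26 potassium channel genes and 14 of 21 sodium, calcium and HCN channel genes were below 0. By the 2-fold rule, which 1.87% of all measured genes met, 3 and 1 counted as lower, the last being Scn9a alone. Kcnip4, a calcium sensor bound to A-type potassium channels, was at 1631, 1929, 2056 and 1240 CPM in VI-2 and 4138, 3616, 3931 and 2355 CPM in the other VI nuclei, without overlap. This low level was shared with VI-1. Pooled over all mice, VI-1 had 1944 CPM, VI-2 had 1837 and VI-5 had 4275. Kcna2 and Kcnab1, given below, were not low in VI-1 (206 and 216 CPM). Kcnq1, a slow potassium channel outside the list, was at 115 against 324 CPM and was the lowest in VI-2 of all 36 populations. Its log2 ratio was -1.42 pooled and -0.77 for the means over mice, under 2-fold. Kcna2 and Kcnab1, a fast potassium channel and its beta subunit, were at 48.3 and 87.2 CPM against 108 and 186 (under 2-fold for the means over mice), and Scn9a, the sodium channel Nav1.7, at 33.4 against 82.5 CPM.

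Among receptor genes the picture varied by list. All 8 measured genes of the monoamine, acetylcholine and peptide receptor list were below 0, with a median of -0.64, and 3 counted as lower. Htr2c, a serotonin receptor, was at 373, 302, 438 and 318 CPM against 1038, 842, 708 and 499 CPM, with no overlap. Oprm1, the mu opioid receptor, was at 34.6, 69.7, 37.7 and 63.6 CPM against 98.8, 170.0, 139 and 83.1 CPM. Pooled over all mice, Htr2c was at 380 CPM in VI-2, 467 in VI-1 and 997 in VI-5. Oprm1 was at 42.7, 117 and 130 CPM in the same populations, so only Htr2c was low in VI-1 as well. Htr4, another serotonin receptor, was at 108 against 215 CPM. Of the 8 GABA-A receptor genes 7 were below 0, and 1 counted as lower, Gabrb2, at 37.1 against 111 CPM. Of 16 ionotropic glutamate receptor genes 11 were below 0, 5 were above and 0 counted as lower. Epha7, a guidance receptor, counted as lower at 35.3 against 71.1 CPM.

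Much of this group difference was not seen at matched depth against the other VI nuclei. There, 20 of the 30 synaptic adhesion genes were above 0 with a median of 0.19, and 6 of the 8 GABA-A receptor genes were above 0. Of all 3904 measured genes, 1941 were above 0. Other lists stayed mostly below. Of the monoamine, acetylcholine and peptide receptor genes 7 of 8 were below 0, with a median of -0.30 and a sum of 1530 against 2267 CPM. Of the glycine receptor and GABA-B genes 4 of 6 were below 0, as at any depth, and of the potassium channel genes 15 of 26. Nrxn3 was at 2623 against 2694 CPM, Kcnip4 at 1874 against 2267 and Kcnq1 at 109 against 142. The 35 reference nuclei came largely from mice other than the 4, of which only control mouse 8 gave as many as 5. Against all other neurons of the same depth, the lists were lower again. The potassium channel list was at 10062 against 17744 CPM with 20 of 26 genes below 0, and the synaptic adhesion list at 32794 against 40391 CPM with 22 of 30 below 0. Among the 31 populations at that depth, VI-2 was the lowest for the potassium channel list and the ionotropic glutamate receptor list, though VI-1 was nearly level with it for the first (10075 against 10062 CPM) and the next lowest for the second had 9223 against 8982 CPM. For the synaptic adhesion list VI-1 was below VI-2 at that depth, at 30287 against 32794 CPM. Oprm1 stayed lower against either reference, at 28.9 CPM against 168 and 94.0.

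**Figure D5:**
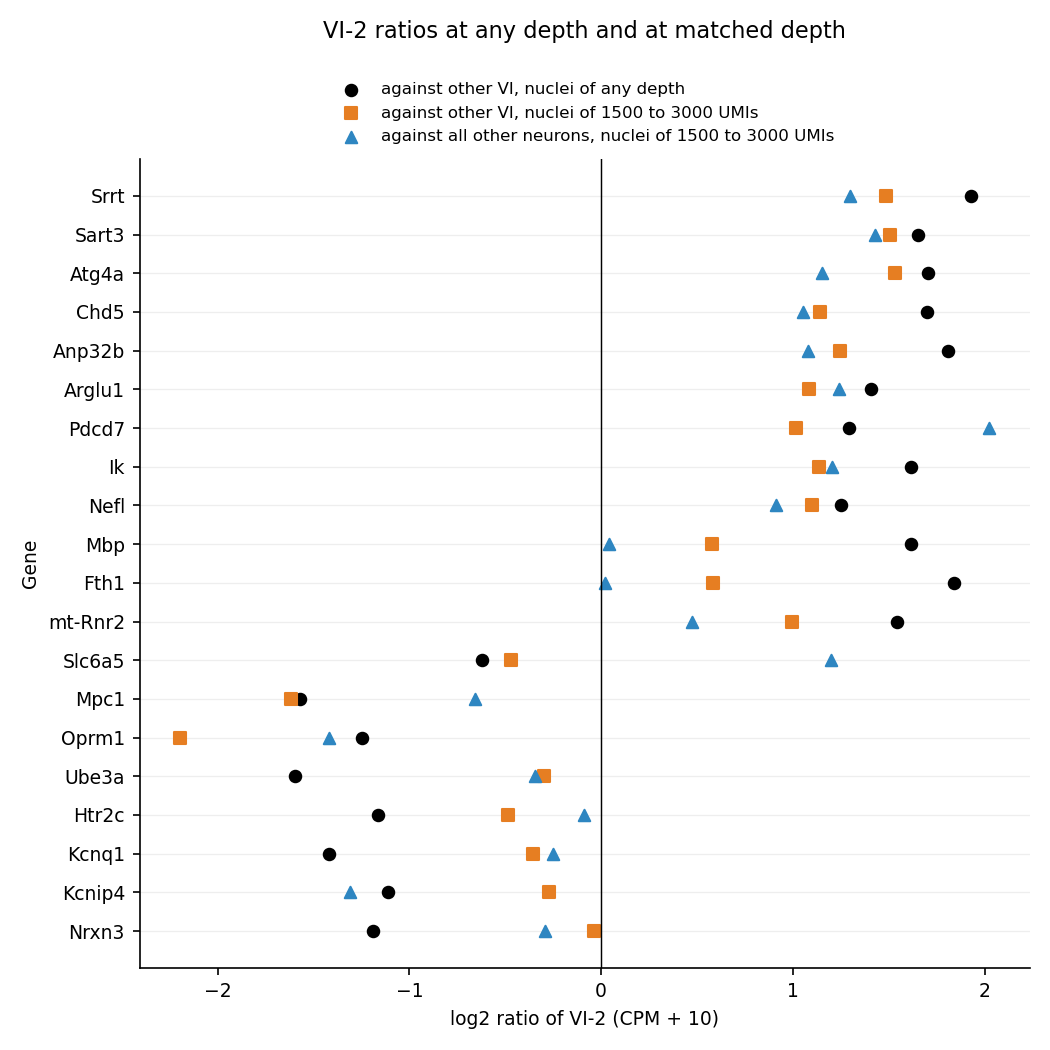
log2 ratio of VI-2 (horizontal axis, CPM plus 10) for 20 genes (vertical axis), against the other VI nuclei at any depth (black) and against other VI nuclei or all other neurons of 1500 to 3000 UMIs (orange and blue). Pooled over mice, Srrt, Sart3 and Arglu1 stay above 1 in all 3. Nrxn3 lies at -0.04 and -0.29 at matched depth, and Fth1 and Mbp fall to 0.02 and 0.04 against all other neurons.

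The genes most reduced in VI-2 outside these lists were varied. Ube3a, a ubiquitin ligase that in neurons is overlapped by an antisense transcript, was at 511, 976, 381 and 238 CPM against 1489, 1410, 333 and 803 CPM, lower in 3 of 4 mice. Its log2 ratio was -1.59 pooled and -0.93 for the means over mice, under 2-fold. At matched depth it was at 431 against 531 CPM. Mpc1, part of the mitochondrial pyruvate carrier, was at 42.7 against 146.5 CPM, lower in 4 of 4 mice and still lower at matched depth (48.2 against 168 CPM). Dcx, a microtubule protein of migrating neurons, was at 18.6 against 65.4 CPM, and at matched depth at 12.9 against 13.0 CPM. Agbl1, Cpa6 and Nrg3os rested on 6 to 13 UMIs in VI-2. Nrg3os is antisense to Nrg3, and since no strand is given the reads of the 2 cannot be told apart.

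Gene length differed between the groups. The genes counted as higher had a median span of 29.8 kb on GRCm38, those counted as lower 66.3 kb and all 3904 measured genes 79.2 kb, with a span found for at least 98.6% of each group. Both groups were shorter than the measured genes, and the higher ones by more. The sources used here do not give whether reads in introns were counted.

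General neuronal genes were low in VI-2. The 7 genes of the neuron list made up 35244 CPM, the lowest of the 36 populations, against 43519 in the other VI nuclei. At matched depth the list was at 35501 CPM in VI-2 and 45390 in all other neurons, again the lowest, of 31. There DE-7 and DI-1 were nearly level with VI-2, at 35741 and 35775 CPM. Neurons without a population in the same mice had 37654, 43866, 37614 and 27696 CPM, beside VI-2 levels of 37269, 36465, 35811 and 28702 CPM, and only control mouse 8 shows a wide gap. Those unplaced neurons were also high in mt-Rnr2, at 17930, 8671, 23475 and 10181 CPM. In Srrt they were lower in control mice 7 and 8 (223 and 109.6 CPM), but at 475 CPM in control mouse 9 and 686 CPM in rotarod mouse 3, where VI-2 had 381 CPM. Their Pdcd7 was at 167, 174, 351 and 450 CPM and their Arglu1 at 838, 690, 1208 and 1417 CPM. Both were below VI-2 in each mouse, but close to its 461 and 1462 CPM in rotarod mouse 3. Chd5 was at 427, 314, 748 and 1136 CPM in them, above VI-2 in control mouse 8 (186) and rotarod mouse 3 (636). Sart3, at 83.5, 78.5, 144 and 135 CPM, was below VI-2 in each mouse.

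Across 6511 genes and among the 35 other populations of at least 50 nuclei, the pooled VI-2 profile was closest to VI-1 (Pearson r = 0.930 of log2 CPM plus 10), then to the ventral excitatory VE-4 (0.923), VI-5 (0.922) and VI-4 (0.918). VI-3, with 37 nuclei, was not compared. These correlations are across genes of pooled libraries that differ in depth, and genes are not independent. For VI-2 nuclei outside the cx mice the order was the same, VI-1 at 0.868, VE-4 at 0.859, VI-5 at 0.850 and VI-4 at 0.848. With pools cut to the same 36098 UMIs over 2119 genes, VI-2 of different mice correlated at 0.665 to 0.739 (median 0.718, 6 pairs). VI-2 and the other VI nuclei of the same mouse correlated at 0.672 to 0.710 (median 0.691, 4 pairs), and other VI nuclei of different mice at 0.687 to 0.746 (median 0.702, 6 pairs). The 3 ranges overlap. In all, 490 of the 3580 genes with at least 50 CPM in VI-2 (13.7%) were higher there than in the other 35 populations. These genes were chosen by their level in VI-2 itself, and no like count is given for another population. The share therefore does not measure how distinct VI-2 is.

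The stimuli could be compared only in part. The share of VI nuclei that were VI-2, in mice with at least 10 VI nuclei, was 0 in control mice 1, 2, 3 and 6, 50.5% in control mouse 7, 30.2% in control mouse 8 and 91.4% in control mouse 9. It was 7.14% in formalin mouse 1 and 0 in formalin mice 2, 5, 7 and 10. Rotarod mice 2, 3, 4 and 5 had 7.14%, 80.6%, 3.33% and 15.4%. The groups overlap, and the controls split between the cx mice and the rest. Means were 24.6% ± 35.6 in controls (SD, n = 7), 1.43% ± 3.19 in formalin mice (n = 5) and 26.6% ± 36.4 in rotarod mice (n = 4). In two-sided exact permutation tests over mice, formalin against control gave p = 0.240 (0.480 after Benjamini-Hochberg adjustment over 2 tests) and rotarod against control p = 0.939 (0.939 adjusted). Without the 3 cx mice the control mean was 0, the formalin difference changed from -23.2 to 1.43 percentage points, and the rotarod difference from 2.04 to 26.6 (exact permutation, p = 0.0571 adjusted), with each of the 4 rotarod mice above the 4 controls. Before adjustment, such a full separation gives the smallest p that 4 against 4 mice allow. Rotarod mice 2 and 4 were above 0 by 1 VI-2 nucleus each, while rotarod mouse 3 had 80.6%. A sample of nuclei cannot tell a change in cell number from a change in capture or labelling.

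No formalin mouse had 5 VI-2 nuclei, so gene levels could be set side by side only for rotarod mouse 3 against control mice 7, 8 and 9. All 3 of these controls are cx mice, so condition, title set and mouse cannot be told apart, and with 1 mouse in an arm its spread is taken to be that of the controls. Rapid activity genes are 23 genes that neurons switch on within minutes of firing. Together they stood at 62.2, 46.5 and 56.6 CPM in VI-2 of control mice 7, 8 and 9 and at 79.5 CPM in rotarod mouse 3. They had 33 UMIs in all VI-2 nuclei. Since 3 UMIs are 47.7 CPM in rotarod mouse 3 and 69.7 CPM in control mouse 8, the order of the mice rests on few UMIs. The rotarod mouse was the highest of the 4, and the two-sided exact permutation p of 0.25 is the smallest that 1 against 3 allows. In the other VI nuclei of the same mice these genes stood at 38.3, 38.6, 0 and 55.4 CPM. The excess of VI-2 over them was 24.1 CPM in the rotarod mouse and 29.4 ± 24.8 CPM in the controls (SD, n = 3, exact permutation p = 1). The best known members were nearly absent from all VI-2 nuclei, with 1 UMI of Fos, 3 of Egr1, 1 of Arc, 3 of Npas4 and 0 of Junb in 538819 UMIs. Median depth per VI-2 nucleus was 2492 UMIs in the rotarod mouse and 2427 ± 432 in the controls (SD, n = 3, exact permutation p = 1).

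Across genes, edgeR's quasi-likelihood test called 21 of 2884 genes between rotarod mouse 3 and the 3 controls (0.728%), 10 higher and 11 lower, at a Benjamini-Hochberg adjusted p under 0.05. With 1 mouse in the rotarod arm, the test sets that mouse against the 3 cx controls and does not compare the conditions. Counts simulated for this design used 1 fixed spread for every gene and no effect of mouse or library. How well the test recovers changed genes in these mice is therefore not known from them. At an unadjusted p under 0.05 there were 237. DESeq2 called 3, and without control mouse 9 edgeR called 11. In the other placed neurons of the same mice, all genes called with the 3 controls had the same direction against the control mean. For 9 of them it was at least 2-fold on the log2 scale with CPM plus 10. Gpc5 and A330102I10Rik were nearly level there, with log2 differences of -0.047 and 0.091. For mt-Nd1, mt-Nd2, mt-Nd4, mt-Cytb and Mbp, rotarod mouse 3 lay above control mouse 7. No such share is given over all genes.

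Some genes that counted as higher in VI-2 than in other VI nuclei were lower in VI-2 of the rotarod mouse than in the controls. mt-Rnr2 was at 4895 CPM in it against 15250.2 ± 3384 CPM in the controls (SD, n = 3), a log2 difference of -1.75 (edgeR adjusted p = 5.94e-13), and Mbp at 175 against 1055 ± 543 CPM, -2.60 (edgeR adjusted p = 2.57e-06). Fth1 was at 15.9 CPM in the rotarod mouse against 262 ± 84.6 CPM, from 1 UMI. Malat1, an abundant nuclear RNA, was at 36204 against 67956 ± 8936 CPM. The mitochondrial mt-Nd1, mt-Nd2, mt-Nd4 and mt-Cytb, subunits of the respiratory chain, had log2 differences of -1.62, -1.80, -2.17 and -1.54. Of these, mt-Nd1 and mt-Nd2 had not counted as higher in VI-2 than in other VI nuclei. In the other placed neurons of the same mice mt-Rnr2 stood at 6148, 5635 and 13038 CPM in the controls and 5068 CPM in the rotarod mouse, and Malat1 at 49001, 61439, 62943 and 30456 CPM.

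Gpc5, a cell surface proteoglycan, and Khdrbs2, a splicing regulator of neurons, were at 318 and 79.5 CPM in the rotarod mouse against 834 ± 219 and 293 ± 67.9 CPM. In the other placed neurons Gpc5 was at 1038, 1230 and 1251 CPM in the controls and 1135 CPM in the rotarod mouse. Khdrbs2 was at 557, 533, 576 and 355 CPM there.

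The higher genes included transcripts from ribosomal RNA regions. Gm42418 was at 898, 279 and 875 CPM in the controls and 3957 CPM in rotarod mouse 3, a log2 difference of 2.30 (edgeR adjusted p = 3.57e-13), and in other neurons at 198, 78.6, 582 and 2507 CPM. n-R5-8s1 was at 318 CPM against 40.6 ± 30.6. Yars, the tyrosyl-tRNA synthetase, was at 540.4 CPM against 122 ± 4.75, a log2 difference of 2.01 (edgeR adjusted p = 0.000214). Peg3, an imprinted gene, was at 5197 CPM against 2402 ± 398, 1.02 (edgeR adjusted p = 0.000437). In other neurons Yars was at 58.9, 84.1, 72.0 and 195 CPM and Peg3 at 1282, 1472, 1232 and 2224 CPM, so the rotarod mouse was the highest there as well. Sez6, Catsperd, Tpd52l1, A330102I10Rik, Gm20756 and Gm23935 were the other 6, each also listed higher in this mouse by 1.39 to 3.71 on the log2 scale.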

How the data were processed

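The deposited table holds the authors' unnormalized UMI counts (32962 genes, 18000 barcodes, 750 from each mouse), and a second table gives their cell labels; per the submitters' processing notes the builds are mm10 and GRCm38. For the aligner and the use of strand, nothing is given in the sources used here. UMI totals per mouse ran from 549903 to 3243587. Doublets were not called again. The members and gene lists were chosen with earlier results of these data known.

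Counts were summed over nuclei of a label and scaled to CPM, with a pseudocount of 10 CPM for log2 ratios. Named genes were the 15 largest and 10 smallest ratios among genes counted as higher or lower, without predicted or Riken symbols, up to 4 members of each list so counted, a fixed set of transmitter, lineage and activity genes, all genes called between conditions, and the 5 with the highest level over the next population. A few genes that meet this rule are not reported here. The genes shown in the figures, and those set beside unplaced neurons or matched depth, were picked from them after their values were seen. For conditions, sums of mice with at least 5 VI-2 nuclei were tested with edgeR 4.0.16 (quasi-likelihood, TMM, its expression filter, R 4.3.3), with DESeq2 1.42.0 as the other tool, and single values by exact permutation over mice. Nothing says more than that each sample is a separate mouse, so p-values measure the spread between these samples. The fit was tested on simulated data. Python 3.11.15, numpy 2.4.6, scipy 1.17.1, pandas 2.3.3 and matplotlib 3.10.9 were used, and positions come from the GENCODE annotation of GRCm38. Alternatives were other pseudocounts, filters, weights, thinning to 1000 UMIs, other denominators, leaving out the cx mice or each mouse. Weighting by mouse, all other neurons as reference, and nuclei of 1500 to 3000 UMIs were added after seeing the data.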

Additional observations from a re-analysis of the deposited data

Results flagged for a closer look

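In formalin mouse 1, 7.14% of VI nuclei were VI-2, from 1 nucleus of 14, while the other 4 formalin mice had 0. In rotarod mouse 3, 80.6% of VI nuclei were VI-2, while the next rotarod mouse had 15.4%. Each value met Dixon's criterion for a value far from the rest of its group. For the formalin mice the outcome was fixed, because with 0 in the other 4 mice any single nucleus meets it. How often chance meets it in such sparse shares was not tested.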

How the results depend on the processing

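The counts of genes higher and lower in VI-2 (210 and 73) were 177 to 220 and 60 to 105 with each mouse left out. The lower count was 147 for a mean over mice, 163 after thinning, 132 with the reference weighted by mouse, 125 against all other neurons, 205 and 30 at minimums of 20 and 100 CPM, 342 without the cx mice, and 474 and 218 at 1500 to 3000 UMIs against other VI and all other neurons. The higher count was 110 with equal weight per population, 470 and 103 at 20 and 100 CPM, and 555 without the cx mice. At 1500 to 3000 UMIs, 188 of the 210 kept their sign against other VI but 60 still met the rule, and 193 and 75 against all other neurons. Of the 73 these were 62 and 14, and 67 and 13.

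Of the log2 ratios of 60 named genes under 23 alternatives, 79 of 1380 changed sign. Of these, 60 of 414 belonged to the 18 genes not counted as higher or lower, among them Mtor (2.78, and -0.59 without control mouse 9), and 19 of 966 to 11 of the 42 counted genes. Of the latter, mt-Cytb was -0.040 for a mean over mice and -0.62 weighted by mouse, mt-Nd4 -0.41 weighted and -0.25 without the cx mice, and mt-Co1 -0.22 without them. Against all other neurons Ebf3 was -0.46, Foxp2 0.076, Otof -0.13 and Slc17a6 -0.092. At 1500 to 3000 UMIs against other VI, Foxp2 was 0.23, Gabrb2 1.08 and Nrg3os 0.12, and against all other neurons Ebf3 -1.07, Foxp2 0.30, Htr4 0.058, mt-Nd4 -0.11, Otof -0.44, Slc17a6 -0.65 and Sparc -0.028. The cause was not tested.

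The formalin share difference was -27.3 to -12.0 percentage points with each mouse left out and 1.43 without the cx mice. The rotarod difference (2.04) was -16.0 to 13.2 with each mouse left out, 26.6 without the cx mice (adjusted p = 0.0571, exact permutation), -1.30 with at least 20 VI nuclei and -0.543 with all placed neurons as denominator. The depth difference (64.7 UMIs) was -180.5 to 227.5, and that of activity genes over other VI (-5.38 CPM) was -16.2 to 8.19, and 44.8 with 8 core genes. The 21 genes called in the rotarod mouse were 3 by DESeq2, 8 without a filter, 5 with at least 3 nuclei per mouse, and 11 to 26 with each control left out, the fewest without control mouse 9.

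The tests of genes, activity and depth were not run for formalin mice, merged in pairs or not, since none had 5 VI-2 nuclei, nor without the cx controls or rotarod mouse 3, which leaves an arm empty. No paired analysis was possible because the numbers within a group follow the deposited order and tie no control to a stimulated mouse. Depth limits single genes: 3 UMIs are 5.57 CPM in VI-2 as a whole and 47.7 CPM in rotarod mouse 3.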
